A study of Mus musculus with 167 samples.

Results

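Bulk RNA sequencing compared mouse fibroblasts that had carried a plasmacytoid dendritic cell factor set for 9 days with plasmacytoid dendritic cells (pDC) sorted from the spleen. The comparison used every library titled C9a.SII d9 tdT+CD45+, replicates 1 to 4, and every library titled pDC, replicates 1 to 5, which made 9 of the 167 libraries of the series. The study screened transcription factors that turn fibroblasts towards dendritic cell subsets, and its freshly isolated spleen populations served as the reference. The question addressed here is how the transcripts of the reporter-positive cells compare with those of the natural cell type.

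C9a.SII cells came from C9a.MEF, a line of embryonic fibroblasts homozygous for both Clec9a(Cre/Cre) and Rosa26(tdTomato/tdTomato), so that Cre made from the Clec9a locus switches on tdTomato (tdT). They were transduced with lentivirus for Spib, Irf8 and Ikzf2 (SII), grown on gelatin in DMEM with serum, and sorted on day 9 as DAPI-, tdT+ and CD45+. Since Cre recombination is permanent, tdT marks cells that expressed Clec9a at any time, and Cre stands in both copies of the gene. The pDC were wildtype, came straight from the spleen and were sorted as DAPI-, CD11c+, Siglec-H+, B220+ and BST2+. Genotype, transduction, culture and tissue of origin therefore differ together between the groups, and their parts in a difference cannot be told apart. The labels do not say whether replicates were separate cultures or animals, so p-values measure only the spread between these libraries, which may be technical. Untransduced C9a.MEF (4 libraries) and splenic conventional dendritic cells cDC1 and cDC2 (3 libraries each) are given beside single genes as context, without a test.

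Plasmacytoid dendritic cells are round, lymphoid-looking cells that sense viral RNA and DNA through endosomal Toll-like receptors and answer with type I interferon. Their identity rests on the E protein TCF4 with SPIB, BCL11A, RUNX2 and IRF8, and the ID proteins, above all ID2, counter E proteins and favour conventional dendritic cells. SPIB is an ETS-family factor, IRF8 an interferon regulatory factor shared with cDC1, and IKZF2 (Helios) a zinc finger protein of the Ikaros family.

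Total counts ran from 1146927 to 11682692 in the C9a.SII libraries and from 1838064 to 8118373 in the pDC libraries. Replicate 1 was the shallowest library of each group and stood apart from the rest of its group. On log2(CPM + 1), its correlation across genes with the other replicates was 0.751 to 0.759 in C9a.SII, where the others reached 0.989 to 0.991, and 0.498 to 0.709 in pDC, where the others reached 0.894 to 0.969. Olfactory and vomeronasal receptor genes took 1.91% of the counts in C9a.SII replicate 1 and 2.57% in pDC replicate 1, against 0.0164 to 0.0244% and 0.0326 to 0.35% in the other replicates. At least 10-fold above every other replicate were 334 genes in C9a.SII replicate 1 and 198 in pDC replicate 1, with 62 genes on both lists (18.6% and 31.3% of them). Each count below was therefore also taken without both of these libraries, named here the shallow libraries, and is given where it changed.

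Levels are TMM-scaled CPM (the usual depth-scaled counts), listed in replicate order, and a fold change is C9a.SII over pDC. A gene was called when its edgeR adjusted p was under 0.05 and its change at least 2-fold. Of 10743 genes with a mean of 10 CPM or more in either group, 2610 (24.3%) were higher and 1877 (17.5%) lower in C9a.SII cells, and the libraries of the groups did not overlap for 43.7%. Together 41.8% of these genes were called, and 36.1% were called without overlap. The same test over the full set of 15518 genes called 2862 (18.4%) higher and 3062 (19.7%) lower, 38.2% in all, with 36.6% free of overlap, 30.6% called without overlap, and a median log2 fold change of -0.10. The counts of list members below are over all genes tested and are to be read against these shares. Members that stand outside the naming rule (Ifit1, H2-Eb1, Ciita, Cd74, and called members of small counts such as Tlr1 or Plek) were chosen after their values were seen. Among genes of 10 CPM or more, 58.2% of the calls were higher. Over the other settings tried this share ran from 50.7% with no low-count filter to 69.3% in a single fit with the 3 context groups, with 63.8% without the shallow libraries and 54 to 54.3% without pDC replicate 2, 3 or 4. In bulk libraries, fewer cells of a type and less RNA per cell cannot be told apart. A count of 0 allows up to 2.89 CPM in C9a.SII replicate 1 and 0.287 to 0.334 CPM in the other C9a.SII libraries.

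**Figure D1:**
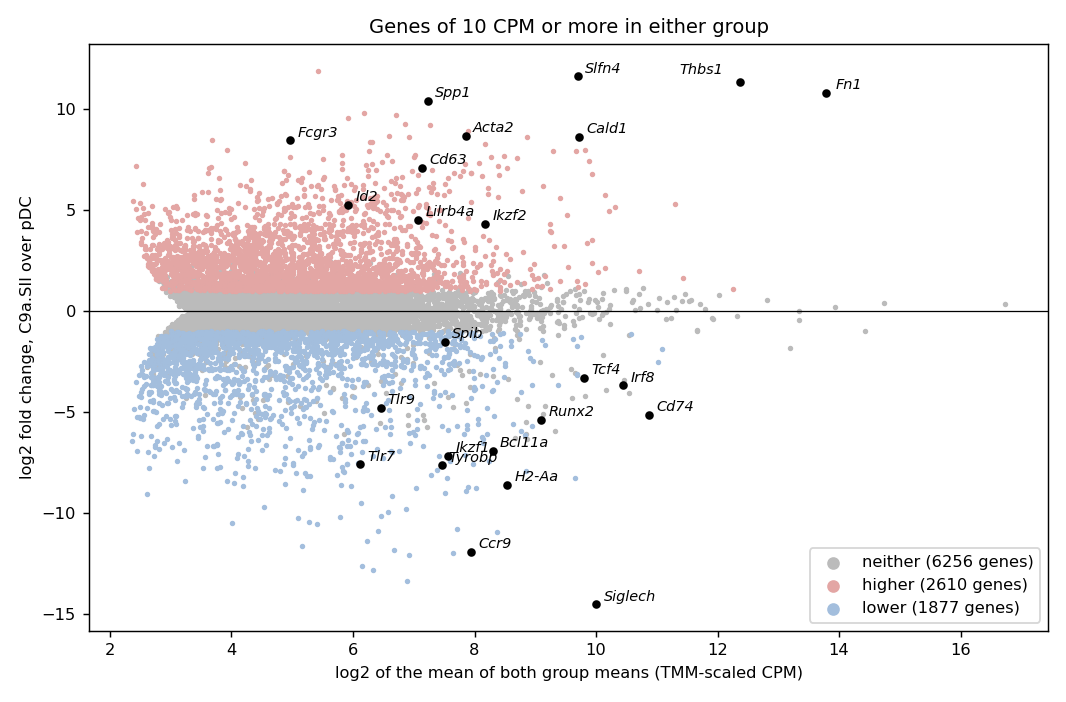
Log2 fold change, C9a.SII over pDC, against the log2 mean level of both groups for the 10743 genes of 10 CPM or more in either group; colours mark the 2610 genes called higher, the 1877 called lower and the rest. Among the labelled genes, Siglech and Ccr9 lie towards the bottom and Fn1, Thbs1, Slfn4 and Spp1 towards the top, and Ikzf2 is the transduced factor above 0.

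All 3 transduced genes differed from pDC, and they did so in different directions. Ikzf2 stood at 679, 559, 482 and 484 CPM in the C9a.SII libraries and 26.4, 29.1, 26.7, 24.9 and 30.9 CPM in the pDC libraries. Its level was higher in C9a.SII cells in every library (log2 fold change 4.32 ± 0.24 SE, edgeR adjusted p = 9.2e-07), and C9a.MEF held 12 ± 0.957 CPM (SD, n = 4). Irf8 reached 271, 184, 175 and 184 CPM in the C9a.SII libraries and 1013, 2536, 2699, 2892 and 3796 CPM in the pDC libraries. It was well above the fibroblast level of 1.21 ± 0.479 CPM and below every pDC library (log2 fold change -3.67 ± 0.41 SE, edgeR adjusted p = 4.4e-05). Spib stood at 131.9, 94, 74.4 and 80.2 CPM in the C9a.SII libraries and 118, 225, 207, 345 and 460.0 CPM in the pDC libraries, against 0.167 ± 0.0912 CPM in C9a.MEF. Spib was lower than in pDC (log2 fold change -1.52 ± 0.39 SE, edgeR adjusted p = 0.0085), although pDC replicate 1 lay inside the C9a.SII range. Counts per gene do not tell vector transcripts from transcripts of the cell's own gene, so these levels are the sum of both.

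The genes behind the sort gates were lower in the sorted C9a.SII cells, and as they chose the cells they are described here without a test. Siglech, Itgax and Bst2 chose only the pDC, while products of Ptprc chose both groups. Bst2 and Itgax are also counted as members of lists below. Siglech, a sialic acid binding lectin of mouse pDC, was at 0, 0, 0.191 and 0 CPM in the C9a.SII libraries and 911, 2251, 2445, 2180.0 and 2484 CPM in the pDC libraries. It had no count in 3 of the 4 C9a.SII libraries, and C9a.MEF held 0.0754 ± 0.151 CPM. Ptprc, which encodes CD45 and its B220 form, stood at 192, 159, 134 and 133 CPM in the C9a.SII libraries and 537, 925, 1039, 779.9 and 942 CPM in the pDC libraries. C9a.MEF had 0.319 ± 0.11 CPM, and every C9a.SII library lay far above that level and below every pDC library. Itgax (CD11c) was at 8.67, 7.91, 4.49 and 5.33 CPM in the C9a.SII libraries and 82.8, 121, 119.9, 128.9 and 161 CPM in the pDC libraries. Bst2, the surface protein tetherin, was at 45.3, 55.8, 55.1 and 51 CPM in the C9a.SII libraries and 82.8, 239.8, 257, 420.3 and 499 CPM in the pDC libraries, and it was higher in C9a.MEF (201 ± 3.62 CPM) than in any C9a.SII library.

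**Figure D2:**
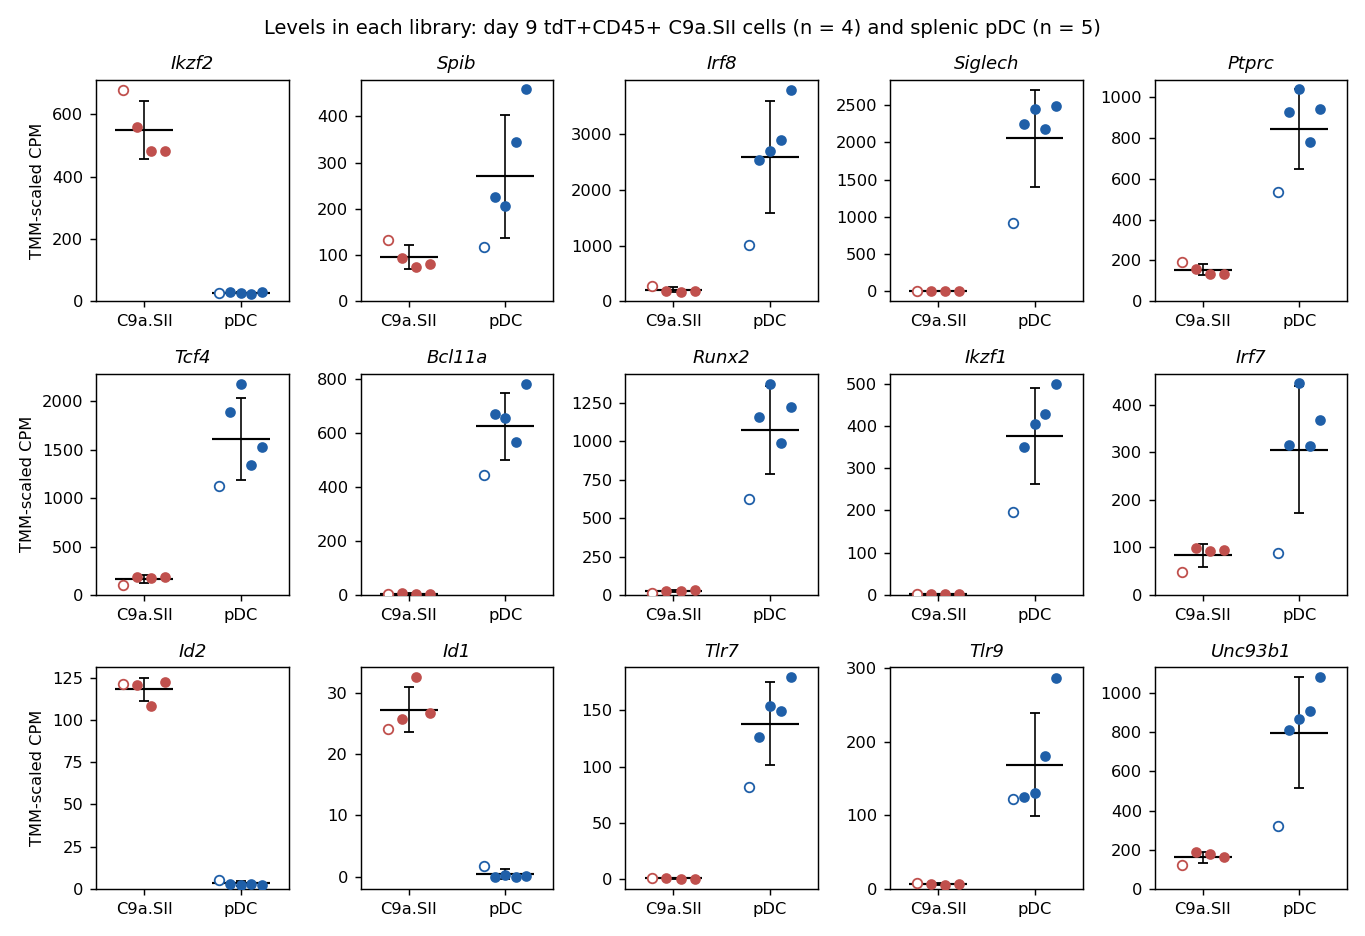
Levels (TMM-scaled CPM) of 15 factors, sort genes and receptors in each library of C9a.SII (n = 4) and pDC (n = 5); open circles are the shallow replicate 1 libraries, lines the group means and bars the SD. Ikzf2, Id2 and Id1 are higher in every C9a.SII library than in any pDC library, while Tcf4, Bcl11a, Runx2, Ikzf1, Tlr7, Tlr9 and Unc93b1 are lower in every one.

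The pDC transcription factor set was lower as a group. Of 14 factors, all tested, 11 fell, none rose and 3 did not pass the test, with a median log2 fold change of -3.72. Tcf4, the E protein (E2-2) that maintains pDC identity, stood at 106, 191, 173 and 187 CPM in the C9a.SII libraries and 1127, 1892, 2183, 1344 and 1528 CPM in the pDC libraries (log2 fold change -3.29 ± 0.33 SE, edgeR adjusted p = 1.9e-05). Its C9a.SII level was close to the 139.7 ± 2.58 CPM of C9a.MEF, and it was far above the 36.4 ± 13 CPM of cDC1 (SD, n = 3). Bcl11a, a zinc finger repressor upstream of pDC genes, was at 3.85, 6.91, 4.78 and 4.44 CPM in the C9a.SII libraries and 445, 671, 655, 566 and 781 CPM in the pDC libraries (log2 fold change -6.93 ± 0.36 SE, edgeR adjusted p = 9.2e-07). Runx2, which controls pDC exit from bone marrow, was at 13.5, 29.4, 27.9 and 30.5 CPM in the C9a.SII libraries and 622, 1158, 1372, 989 and 1225 CPM in the pDC libraries (log2 fold change -5.39 ± 0.40 SE, edgeR adjusted p = 2.9e-06). Both stood at fibroblast levels, with 4.86 ± 1.1 CPM of Bcl11a and 29.95 ± 2.46 CPM of Runx2 in C9a.MEF. Ikzf1 (Ikaros), the relative of the transduced Ikzf2, was at 1.93, 2.45, 2.58 and 3.11 CPM in the C9a.SII libraries and 198, 349, 405, 427 and 499 CPM in the pDC libraries (log2 fold change -7.16 ± 0.39 SE, edgeR adjusted p = 9.2e-07). The groups did not overlap for any of these 4 genes.

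Irf7, the master regulator of interferon alpha genes, stood at 48.2, 99.98, 93.2 and 95 CPM in the C9a.SII libraries and 88.8, 314, 445, 313 and 367 CPM in the pDC libraries (log2 fold change -1.86 ± 0.43 SE, edgeR adjusted p = 0.005). Here pDC replicate 1 fell inside the C9a.SII range, and C9a.MEF held 168 ± 9.38 CPM, more than the C9a.SII libraries. Cbfa2t3 (ETO2, a corepressor that works with TCF4), Myb, Mef2c, Ikzf3, Xbp1 and Ets1 also fell, with log2 fold changes of -6.85, -4.51, -4.17, -4.15, -2.70 and -1.77 and no overlap for any of them. Zeb2, the repressor that holds back Id2 and cDC1 genes, did not pass the test. Its levels were 238, 378, 336 and 372 CPM in the C9a.SII libraries and 329, 582, 708, 459 and 534 CPM in the pDC libraries (log2 fold change -0.66 ± 0.29 SE, edgeR adjusted p = 0.082), all above the 147 ± 2.54 CPM of C9a.MEF. Tcf12, another E protein, and Stat3 also did not pass, at 76.1 to 182 CPM against 149 to 295 CPM (log2 fold change -0.61 ± 0.31 SE, edgeR adjusted p = 0.13) and 233 to 305 CPM against 102 to 277 CPM (log2 fold change 0.35 ± 0.29 SE, edgeR adjusted p = 0.34). Of these 14 factors, 13 had their lowest pDC level in the shallow pDC replicate 1, and the count of lower factors was the same without the shallow libraries.

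The E protein antagonists went the other way. Of 15 conventional dendritic, myeloid and ID factors, 13 were tested, 7 rose and 3 fell, with a median of 1.86. Id2, the inhibitor that splits conventional from plasmacytoid fate, stood at 121, 121, 108 and 123 CPM in the C9a.SII libraries and 5.4, 2.97, 2.45, 3.14 and 2.1 CPM in the pDC libraries (log2 fold change 5.27 ± 0.28 SE, edgeR adjusted p = 9.2e-07). That level was above the 17 ± 1.46 CPM of C9a.MEF and next to the 122 ± 8.86 CPM of cDC2 (SD, n = 3). It was below the 302 ± 35.6 CPM of cDC1 (SD, n = 3). Id1 was at 24.1, 25.7, 32.5 and 26.7 CPM in the C9a.SII libraries and 1.8, 0, 0.272, 0 and 0.123 CPM in the pDC libraries (log2 fold change 6.58 ± 0.72 SE, edgeR adjusted p = 3.0e-05), with 45.5 ± 0.809 CPM in C9a.MEF. Id3 rose as well (54.9 to 59.7 CPM against 1.89 to 10.2 CPM, log2 fold change 3.71 ± 0.45 SE, edgeR adjusted p = 7.0e-05), and C9a.MEF had 63.8 ± 2.28 CPM. Among the ID genes, the C9a.SII levels of Id2 lay above that of the starting fibroblasts, and those of Id1 and Id3 lay below it.

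Cebpb, Nfil3 and Maf, all basic leucine zipper factors, rose too, with log2 fold changes of 3.09, 3.02 and 1.86. Spi1 (PU.1), the ETS factor that most myeloid cells need, fell, at 0, 7.24, 5.16 and 2.67 CPM in the C9a.SII libraries and 24, 24.5, 18, 32.5 and 41.9 CPM in the pDC libraries (log2 fold change -2.73 ± 0.54 SE, edgeR adjusted p = 0.002). Irf4, which pDC share with cDC2, was at 1.93, 1.34, 1.53 and 0.889 CPM in the C9a.SII libraries and 37.8, 37, 35.1, 36.4 and 46.1 CPM in the pDC libraries (log2 fold change -4.84 ± 0.29 SE, edgeR adjusted p = 9.2e-07), and Cebpa fell (log2 fold change -3.91). The groups did not overlap for any of these 6 genes. Zbtb46, the factor that marks conventional dendritic cells, did not pass the test (2.12 to 4.82 CPM against 1.85 to 13.8 CPM, log2 fold change -1.06 ± 0.60 SE, edgeR adjusted p = 0.17), and neither did Relb (log2 fold change -0.24 ± 0.23 SE, edgeR adjusted p = 0.42) or Klf4 (log2 fold change -1.22 ± 0.46 SE, edgeR adjusted p = 0.052). Batf3 and Zfp366 were too low to test, with at most 1.34 and 2.89 CPM in C9a.SII.

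**Figure D3:**
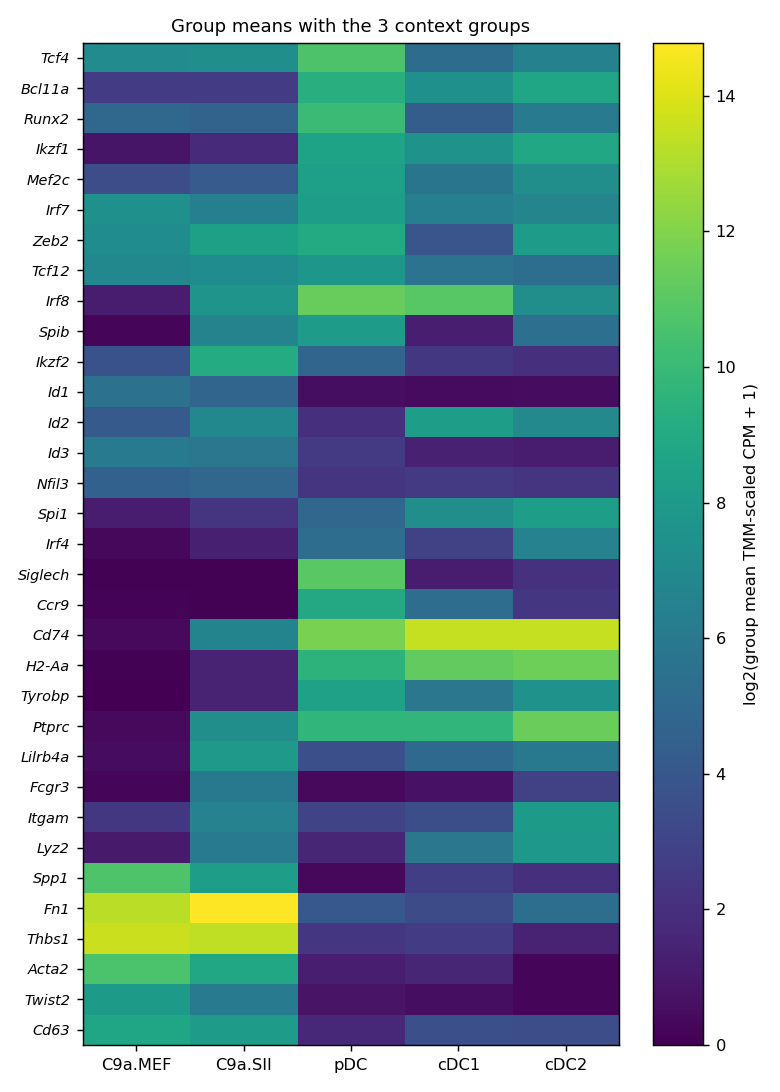
Group means, as log2(TMM-scaled CPM + 1), of 33 genes in C9a.MEF (n = 4), C9a.SII (n = 4), pDC (n = 5), cDC1 (n = 3) and cDC2 (n = 3); lighter colours are higher levels and levels of different genes are not comparable by length. For Tcf4, Bcl11a and Runx2 the C9a.SII column matches C9a.MEF more closely than pDC, while Irf8, Spib, Ikzf2, Ptprc, Lilrb4a and Fcgr3 are lighter in C9a.SII than in C9a.MEF.

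None of the surface and effector genes of pDC reached the spleen level. All 23 tested of 24 fell, with a median log2 fold change of -7.90, and the groups did not overlap for any of them. The summed level of the 23 was 231 to 412 CPM in C9a.SII libraries, 3011 to 8110.4 CPM in pDC and 493 CPM in C9a.MEF. Ccr9, the gut-homing chemokine receptor of mature pDC, whose gene overlaps others on both strands, was at 0, 0, 0 and 0.333 CPM in the C9a.SII libraries and 268, 570.5, 569, 467 and 575 CPM in the pDC libraries. With 3 counts in all C9a.SII libraries together, its pooled ratio of pDC to C9a.SII was 5200 (95% counting interval 1779 to 25216). Dntt, the terminal transferase of lymphoid progenitors, was at 0, 0, 0 and 0 CPM in the C9a.SII libraries and 61.8, 157, 136, 206 and 242 CPM in the pDC libraries, at least 1842-fold lower when 3 counts over the group are taken as the floor. Ly6d, a lymphoid progenitor marker, was at 0, 0.111, 0 and 0 CPM in the C9a.SII libraries and 53.4, 153, 126, 184 and 231 CPM in the pDC libraries. These 3 genes were therefore near or at 0 in every C9a.SII library. Ly6c2 and Cd4 were likewise at 0 to 0.111 CPM against 117 to 272 CPM and 0 to 0.963 CPM against 226 to 579.6 CPM. Gzmb, the untested member, had at most 0.111 CPM in C9a.SII and 0.809 CPM in pDC. All 23 genes were lowest in pDC replicate 1 among the pDC libraries, and 20 were highest in replicate 5. These counting intervals cover counting error only.

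The nucleic acid sensing path was split between its receptors, which were low, and its common signalling parts, most of which did not pass the test. Of 25 genes of endosomal Toll-like receptors and interferon induction, 22 were tested, 10 fell and 2 rose, with a median of -0.68. Tlr7, the receptor for single-stranded RNA, was at 0.963, 1.23, 0.382 and 0.444 CPM in the C9a.SII libraries and 81.6, 126, 154, 149.8 and 179 CPM in the pDC libraries (log2 fold change -7.59 ± 0.46 SE, edgeR adjusted p = 1.1e-06). Tlr9, the receptor for unmethylated CpG DNA, was at 7.7, 6.69, 4.78 and 6 CPM in the C9a.SII libraries and 122, 125, 130.8, 180.4 and 287 CPM in the pDC libraries (log2 fold change -4.78 ± 0.36 SE, edgeR adjusted p = 2.9e-06). Both were low in every C9a.SII library, but Tlr9 stood above the 0.125 ± 0.095 CPM of C9a.MEF. Unc93b1, the chaperone that carries these receptors to endosomes, was at 122, 187, 176 and 163 CPM in the C9a.SII libraries and 322, 813, 867, 908 and 1084 CPM in the pDC libraries (log2 fold change -2.30 ± 0.36 SE, edgeR adjusted p = 4.6e-04). Its C9a.SII levels lay between those of C9a.MEF, 32.2 ± 1.42 CPM, and those of pDC. Slc15a4, the lysosomal transporter that recruits the IRF5 adaptor TASL, was at 10.6, 26.2, 24 and 28.4 CPM in the C9a.SII libraries and 121, 106, 119, 113 and 146 CPM in the pDC libraries (log2 fold change -2.41 ± 0.28 SE, edgeR adjusted p = 5.4e-05). The TASL gene itself, listed as 5430427O19Rik, fell too (2.44 to 3.85 CPM against 22.2 to 50.5 CPM, log2 fold change -3.65 ± 0.31 SE, edgeR adjusted p = 6.6e-06).

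Tlr12, Pik3ap1 (the adaptor BCAP) and Ikbkb fell without overlap, with log2 fold changes of -6.63, -2.20 and -1.42, and Hmgb1 fell with overlap (log2 fold change -1.41). Hmgb1 was not called in 6 of the 15 other settings, among them the replicate block (edgeR adjusted p = 0.0511) and the loss of any 1 C9a.SII library (0.0586 to 0.077). Pik3ap1 reached 71.3, 103, 96.9 and 90.6 CPM in C9a.SII cells, against 0.24 ± 0.0522 CPM in C9a.MEF. Myd88, the adaptor shared by most Toll-like receptors, did not pass the test (15.4 to 39.7 CPM against 21 to 73.2 CPM, log2 fold change -0.52 ± 0.36 SE, edgeR adjusted p = 0.26). Irf5, a partner of IRF7 in cytokine induction, also did not (86.7 to 128 CPM against 47.4 to 185 CPM, log2 fold change -0.38 ± 0.35 SE, edgeR adjusted p = 0.39), and it stood above the 4.72 ± 0.252 CPM of C9a.MEF. Irak4, Irak1, Traf6, Chuk, Ikbkg, Grn, Ap3b1 and Ap3d1 had log2 fold changes of -0.71 to 0.08 and were not called. Lgmn, an endosomal protease that matures these receptors, rose (127 to 159.9 CPM against 13.8 to 39 CPM, log2 fold change 2.30 ± 0.27 SE, edgeR adjusted p = 6.6e-05). Traf3, the ubiquitin ligase that links the receptors to IRF7, was at 107, 141, 137 and 124 CPM in the C9a.SII libraries and 51.6, 63.4, 79, 57.9 and 60.3 CPM in the pDC libraries (log2 fold change 1.03 ± 0.19 SE, edgeR adjusted p = 0.0014). The Traf3 change lay at the 2-fold limit and was not called in 9 of 15 other settings. Tlr8, Tlr11 and Tlr13 were not tested, with at most 4.82 CPM in any C9a.SII library.

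Sensors outside the endosome were mixed. Of 19, 16 were tested, 5 rose and 8 fell (7 without the shallow libraries), with a median of -1.12. Aim2, the inflammasome sensor of cytosolic DNA, fell (0 to 0.86 CPM against 26.4 to 78.5 CPM, log2 fold change -6.14 ± 0.48 SE, edgeR adjusted p = 3.7e-06), as did Nlrp3 (log2 fold change -3.98 ± 0.70 SE, edgeR adjusted p = 8.8e-04), Tlr5 (log2 fold change -2.94 ± 0.37 SE, edgeR adjusted p = 8.9e-05) and Dhx58 (log2 fold change -1.54 ± 0.33 SE, edgeR adjusted p = 0.0034). Ddx58, which encodes the RNA sensor RIG-I, rose (13.5 to 19.97 CPM against 2.59 to 7.8 CPM, log2 fold change 1.93 ± 0.37 SE, edgeR adjusted p = 0.0017), and so did Ifi204 (log2 fold change 1.58 ± 0.23 SE, edgeR adjusted p = 2.8e-04). Both were lower in C9a.SII cells than in C9a.MEF, which had 179 ± 3.96 and 204 ± 6.79 CPM. The surface receptors Tlr1, Tlr2 and Tlr4 were the other members that rose, with log2 fold changes of 2.96 ± 0.63, 1.495 ± 0.195 and 1.89 ± 0.40 SE. Tlr2 was at 40.01 to 53.1 CPM against 13.1 to 18.6 CPM and Tlr4 at 7.24 to 10.3 CPM against 1.23 to 3.6 CPM. Mavs and Cgas did not pass the test (log2 fold change 0.43 ± 0.27 SE, edgeR adjusted p = 0.22 and log2 fold change -0.58 ± 0.71 SE, edgeR adjusted p = 0.53).

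Interferon-stimulated genes did not move as 1 block. Of 30, 29 were tested, 15 fell, 4 rose (Ifit1, Ifit3, Oas2 and Ifitm3) and 10 did not pass, with a median of -1.21 (14 fell and 5 rose without the shallow libraries). The genes counted as lower include Bst2, which chose the pDC. Promoters of a pair from each direction are shown because all 4 hold the core of the interferon-stimulated response element, the site bound by the interferon-activated complex that holds STAT2 and IRF9. The 250 bases before the start, 5′ to 3′ on the gene's strand, are from RefSeq (GRCm38.p6), with the letters GAAA, any 2 bases, GAAA, read on either strand, in capitals. Ifit1 (chr19:34640639-34640888, + strand) and Ifit3 (chr19:34583279-34583528, + strand) rose.
Ifit1: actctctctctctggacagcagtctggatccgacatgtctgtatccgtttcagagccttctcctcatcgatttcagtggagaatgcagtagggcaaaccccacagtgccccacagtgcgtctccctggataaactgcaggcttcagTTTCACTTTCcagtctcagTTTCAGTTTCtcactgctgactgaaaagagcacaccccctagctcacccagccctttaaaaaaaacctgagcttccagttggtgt
Ifit3: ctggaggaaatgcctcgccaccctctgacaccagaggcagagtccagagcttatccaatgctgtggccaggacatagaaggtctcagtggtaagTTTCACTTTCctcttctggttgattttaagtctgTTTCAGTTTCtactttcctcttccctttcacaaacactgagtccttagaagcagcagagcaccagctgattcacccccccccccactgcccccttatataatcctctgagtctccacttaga
Bst2 (chr8:71537473-71537722, - strand) and Stat2 (chr10:128270248-128270497, + strand) were lower, and Bst2 is also a gene of the pDC sort gate.
Bst2: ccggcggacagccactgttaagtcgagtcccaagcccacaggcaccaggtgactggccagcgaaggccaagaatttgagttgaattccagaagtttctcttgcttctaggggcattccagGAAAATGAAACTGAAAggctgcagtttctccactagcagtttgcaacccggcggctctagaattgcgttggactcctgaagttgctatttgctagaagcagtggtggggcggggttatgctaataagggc
Stat2: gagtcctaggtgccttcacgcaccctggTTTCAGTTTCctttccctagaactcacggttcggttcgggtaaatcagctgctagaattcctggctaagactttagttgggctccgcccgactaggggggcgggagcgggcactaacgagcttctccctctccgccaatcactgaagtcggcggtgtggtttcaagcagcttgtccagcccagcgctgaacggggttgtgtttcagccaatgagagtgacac
The Bst2 stretch holds 2 overlapping matches, and Ifit1 and Ifit3 hold 2 separate ones each. The letters occurred in 10 of the 21 tested genes of the list with a sequence, in 2 of the 3 that rose, in 4 of the 12 that fell and in 4 of the 6 that did not pass. Of all 27025 gene symbols with a promoter sequence 3.46% held them in any of their promoters, and 3.38% of the 8019 tested genes of 10 CPM or more. A match is a description of letters, not of a bound site. Ifit1 was at 4.82, 7.58, 24.8 and 6.33 CPM in the C9a.SII libraries and 2.4, 1.35, 1.91, 1.05 and 2.35 CPM in the pDC libraries (log2 fold change 2.62 ± 0.55 SE, edgeR adjusted p = 0.0027).

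Among those that fell, Mx1, a GTPase that blocks influenza virus, was at 7.7, 2.34, 2.87 and 1.78 CPM in the C9a.SII libraries and 26.4, 92.8, 76, 63.6 and 60.4 CPM in the pDC libraries (log2 fold change -4.41 ± 0.50 SE, edgeR adjusted p = 4.5e-05). Oasl2, of the oligoadenylate synthase family, was at 1.93, 5.57, 5.35 and 4 CPM in the C9a.SII libraries and 26.4, 49.1, 45.8, 46.1 and 51.1 CPM in the pDC libraries (log2 fold change -3.28 ± 0.32 SE, edgeR adjusted p = 1.6e-05). Oasl1 fell as well (log2 fold change -2.67 ± 0.45 SE, edgeR adjusted p = 7.0e-04). These genes were low in every C9a.SII library, and for Oasl2 the C9a.MEF level of 281 ± 10.8 CPM was above both groups. Among those that rose, Oas2, another oligoadenylate synthase, was at 12.5, 35.8, 36.5 and 28.3 CPM in the C9a.SII libraries and 6.6, 1.35, 1.36, 0.786 and 1.61 CPM in the pDC libraries (log2 fold change 3.80 ± 0.56 SE, edgeR adjusted p = 2.8e-04). Ifit3, an RNA-binding repeat protein, was at 17.3, 15, 33 and 11.1 CPM in the C9a.SII libraries and 3, 2.43, 2.45, 2.1 and 3.7 CPM in the pDC libraries (log2 fold change 2.79 ± 0.38 SE, edgeR adjusted p = 1.5e-04). Its C9a.MEF level of 375 ± 9.92 CPM was higher still. Trim30a was not called, at 59.7 to 147 CPM against 92.4 to 269 CPM (log2 fold change -0.55 ± 0.35 SE, edgeR adjusted p = 0.23). The summed level of the list was 784 to 1120.5 CPM in C9a.SII, 812 to 2304 CPM in pDC and 3489 CPM in C9a.MEF, so the starting line held the most.

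The interferon receptors divided by type. Both chains of the type I receptor fell and both chains of the type II receptor rose. Ifnar2, a type I chain, was at 22.1, 31.3, 33.8 and 28.3 CPM in the C9a.SII libraries and 80.4, 188, 214, 253 and 261 CPM in the pDC libraries (log2 fold change -2.78 ± 0.35 SE, edgeR adjusted p = 9.5e-05), and Ifnar1 at 59.7 to 87.5 CPM against 163 to 301 CPM (log2 fold change -1.66 ± 0.25 SE, edgeR adjusted p = 3.6e-04). Ifngr2, a chain of the interferon gamma receptor, was at 143, 173, 172 and 173 CPM in the C9a.SII libraries and 17.4, 23.5, 23.4, 35.1 and 32.4 CPM in the pDC libraries (log2 fold change 2.65 ± 0.24 SE, edgeR adjusted p = 8.6e-06), and Ifngr1 at 37.6 to 102 CPM against 11.4 to 24.6 CPM (log2 fold change 2.19 ± 0.33 SE, edgeR adjusted p = 3.0e-04). The groups overlapped for none of these 4 genes. Tyk2, a kinase on the type I receptor, and Stat2, its signal transducer, fell (log2 fold change -2.09 ± 0.29 SE, edgeR adjusted p = 1.7e-04; log2 fold change -1.21 ± 0.28 SE, edgeR adjusted p = 0.0051). Jak1, the kinase on both receptors, and the feedback inhibitors Socs1 and Socs3 also rose, with log2 fold changes of 1.87 ± 0.31, 1.89 ± 0.46 and 1.73 ± 0.34 SE. Over the 12 genes of this list, 5 rose and 6 fell (5 without the shallow libraries).

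**Figure D4:**
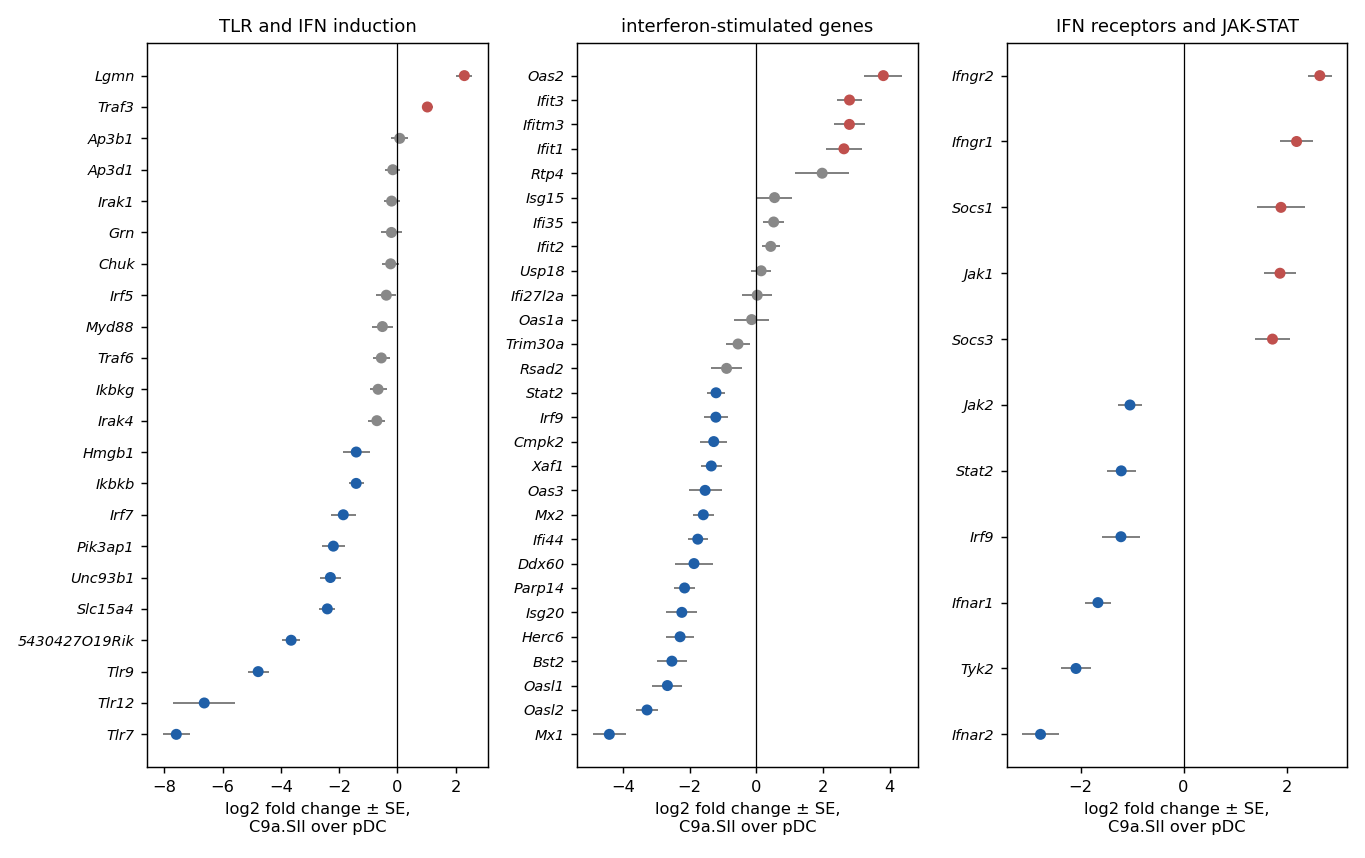
Log2 fold change, C9a.SII over pDC, with its SE for the 22 tested genes of receptor sensing and interferon induction, 28 of the 29 interferon-stimulated genes and 11 of the 12 interferon receptor and JAK-STAT genes; red is called higher, blue called lower, grey neither. Tlr7, Tlr12 and Tlr9 lie farthest left in the first panel, and in the third the chains of the type I receptor lie left of 0 and those of the type II receptor right of it.

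Class II antigen presentation was lower throughout. All 13 tested of 14 genes fell without overlap, with a median of -6.99, and the summed level was 166 to 239 CPM in C9a.SII against 3122 to 10088 CPM in pDC. Promoters of an alpha and a beta chain gene are printed because class II genes share an upstream module that ends in a Y box, the site of the NF-Y complex. Capitals mark CTGATTGG in the 250 bases before the start of H2-Aa (chr17:34287824-34288073, - strand) and H2-Eb1 (chr17:34305617-34305866, + strand), from RefSeq (GRCm38.p6).
H2-Aa: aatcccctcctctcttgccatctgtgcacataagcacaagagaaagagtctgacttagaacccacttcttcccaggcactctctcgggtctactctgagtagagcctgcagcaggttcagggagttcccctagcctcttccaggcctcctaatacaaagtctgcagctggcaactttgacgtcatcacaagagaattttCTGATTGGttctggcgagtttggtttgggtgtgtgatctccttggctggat
H2-Eb1: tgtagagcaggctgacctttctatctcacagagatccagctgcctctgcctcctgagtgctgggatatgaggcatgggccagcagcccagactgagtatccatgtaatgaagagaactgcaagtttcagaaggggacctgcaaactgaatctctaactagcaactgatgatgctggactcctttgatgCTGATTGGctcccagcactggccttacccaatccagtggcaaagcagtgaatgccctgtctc
The letters, on either strand, were in 3 of the 9 tested class II list genes with a sequence (H2-Aa, H2-Eb1 and H2-Oa). They were in 4.43% of all 27025 gene symbols with a promoter sequence and in 5.76% of the tested genes of 10 CPM or more.

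H2-Aa was at 0, 2.45, 3.34 and 0.777 CPM in the C9a.SII libraries and 343, 787, 766, 820.3 and 992 CPM in the pDC libraries (log2 fold change -8.61 ± 0.77 SE, edgeR adjusted p = 8.4e-06). H2-Eb1 was at 0, 4.01, 2.58 and 2.67 CPM in the C9a.SII libraries and 163, 594, 499, 584 and 673 CPM in the pDC libraries (log2 fold change -7.58 ± 0.72 SE, edgeR adjusted p = 1.2e-05). Neither had a count in C9a.SII replicate 1, and both were low in the other 3. Ciita, the coactivator that switches class II genes on, was at 0.963, 1.78, 2.01 and 1 CPM in the C9a.SII libraries and 112, 234, 300.2, 158 and 189 CPM in the pDC libraries (log2 fold change -6.99 ± 0.43 SE, edgeR adjusted p = 1.2e-06). Cd74, the invariant chain, was at 101, 120.5, 103 and 86 CPM in the C9a.SII libraries and 1649, 3743, 3802, 4163 and 4839 CPM in the pDC libraries (log2 fold change -5.15 ± 0.40 SE, edgeR adjusted p = 3.5e-06). C9a.MEF had 0.288 ± 0.179 CPM of Cd74 and 0.169 ± 0.098 CPM of Ciita.

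Class I presentation was lower in part. Of 21 genes, all tested, 13 fell and none rose, with a median of -1.54. H2-Q7, a nonclassical class I gene, was at 3.85, 11.1, 8.69 and 9.22 CPM in the C9a.SII libraries and 358, 761, 722, 499 and 582 CPM in the pDC libraries (log2 fold change -6.11 ± 0.43 SE, edgeR adjusted p = 1.9e-06). H2-Q6, a near-identical copy whose reads may be split with H2-Q7, fell as well (log2 fold change -4.27 ± 0.52 SE, edgeR adjusted p = 7.0e-05), so each is uncertain alone. H2-K1, a classical heavy chain, and Psmb9, an immunoproteasome subunit, fell (log2 fold change -3.14 ± 0.48 SE, edgeR adjusted p = 3.6e-04; log2 fold change -3.76 ± 0.32 SE, edgeR adjusted p = 6.3e-06). B2m, the light chain, and Canx, a chaperone of folding, did not pass (311 to 625 CPM against 404 to 1242 CPM, log2 fold change -0.55 ± 0.36 SE, edgeR adjusted p = 0.24; 402 to 629 CPM against 122 to 527 CPM, log2 fold change 0.76 ± 0.39 SE, edgeR adjusted p = 0.13). Of 14 costimulation and checkpoint ligands, 11 were tested, 4 rose (5 without the shallow libraries) and 2 fell. Nectin2 and Pvr, both ligands of DNAM-1, rose (39.5 to 71.5 CPM against 0.988 to 9 CPM, log2 fold change 4.32 ± 0.58 SE, edgeR adjusted p = 1.4e-04; log2 fold change 1.31 ± 0.26 SE, edgeR adjusted p = 0.0022), with C9a.MEF at 128 ± 7.28 and 30.5 ± 2.98 CPM. Cd80, a ligand of CD28, also rose (log2 fold change 2.59 ± 0.59 SE). Icosl, the ligand of ICOS, fell (0.223 to 3.85 CPM against 32.4 to 44.7 CPM, log2 fold change -5.69 ± 0.60 SE, edgeR adjusted p = 2.6e-05), as did Cd274, which encodes PD-L1 (log2 fold change -1.54 ± 0.31 SE).

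Listed markers of conventional dendritic cells were mixed for cDC1 and mostly lower than in pDC for cDC2. Of 15 cDC1 markers, 9 were tested, 3 rose and 5 fell. Those that fell included the transduced Irf8 and Clec9a, so the count rests in part on genes that the design itself altered. Clec9a, the necrotic cell receptor whose locus carries Cre in the C9a line, was at 0, 0.223, 0.0955 and 0.222 CPM in the C9a.SII libraries and 119, 209.8, 225, 189.9 and 215 CPM in the pDC libraries. The altered allele and the state of the cells cannot be told apart for this gene, and no fold is given. Wdfy4, needed for cross-presentation, fell (2 to 3.34 CPM against 136 to 242 CPM, log2 fold change -6.08 ± 0.31 SE, edgeR adjusted p = 9.2e-07), while Naaa and Cd24a rose (65.1 to 116 CPM against 3.78 to 13.8 CPM, log2 fold change 3.25 ± 0.38 SE, edgeR adjusted p = 5.5e-05; log2 fold change 2.24 ± 0.38 SE, edgeR adjusted p = 7.7e-04), as did the lysosomal thioesterase Ppt1 (log2 fold change 1.44 ± 0.31 SE). Xcr1 and Itgae were too low to test, with at most 2.34 and 0.334 CPM in C9a.SII. Of 15 cDC2 markers, 11 were tested, 2 rose and 8 fell. Itgam (CD11b) and S100a4 were the ones that rose (54.9 to 110.3 CPM against 3.58 to 11.4 CPM, log2 fold change 3.71 ± 0.34 SE, edgeR adjusted p = 9.9e-06; 38.4 to 53.9 CPM against 0.539 to 3.4 CPM, log2 fold change 4.23 ± 0.39 SE, edgeR adjusted p = 1.1e-05). Clec10a, also made by pDC here, fell (0 to 0.222 CPM against 64.8 to 224 CPM), and so did Cd7 (1 to 2.89 CPM against 40.2 to 196 CPM). Clec10a, Cd4 and Ccr2 had higher means in pDC (177, 419 and 118 CPM) than in cDC2 (17.9, 191 and 68.2 CPM). Cd7 (122 CPM in pDC and 137 CPM in cDC2) and Itgam (7.29 and 267 CPM) were higher in cDC2. A fall against pDC is therefore not a measure of cDC2 character for every listed gene.

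Of 16 pan-dendritic and cytokine receptor genes, 14 were tested, 2 rose and 7 fell, or 10 without the shallow libraries. The genes counted as lower include Itgax, which chose the pDC. Flt3, a receptor with a role in dendritic cell development, was at 0.222 to 53 CPM against 126 to 242 CPM and did not pass the test (log2 fold change -4.04 ± 1.73 SE, edgeR adjusted p = 0.091). Its C9a.SII level rested on replicate 1, since the others lay between 0.222 and 0.287 CPM, and it was called lower once that library was left out. Il7r and Dpp4 fell (log2 fold change -7.10 ± 0.47 SE, edgeR adjusted p = 1.5e-06; log2 fold change -2.58 ± 0.30 SE, edgeR adjusted p = 5.2e-05). Kmo, an enzyme of tryptophan breakdown in dendritic cells, was at 0 to 0.963 CPM against 212 to 481 CPM. Tnfrsf1a, a receptor for tumour necrosis factor, rose (53 to 105.4 CPM against 22.2 to 35.1 CPM, log2 fold change 1.70 ± 0.24 SE, edgeR adjusted p = 2.0e-04), and so did Il3ra, the interleukin 3 receptor chain CD123 (log2 fold change 1.13 ± 0.26 SE).

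General leukocyte genes were lower than in pDC, and their summed level lay between those of C9a.MEF and pDC. Of 24 pan-leukocyte genes, all tested, 21 fell and 1, Plek (log2 fold change 1.23 ± 0.37 SE), rose, with a median of -3.63. Their summed level was 839 to 1259 CPM in C9a.SII, 2918 to 8888 CPM in pDC and 218 CPM in C9a.MEF. Sash3, a lymphocyte adaptor, was at 2.89, 1.11, 0.669 and 0.222 CPM in the C9a.SII libraries and 39, 91.4, 82.8, 154 and 175 CPM in the pDC libraries (log2 fold change -7.00 ± 0.70 SE, edgeR adjusted p = 2.1e-05). Dock2 and Rac2, the exchange factor and GTPase of leukocyte migration, and Cytip fell too (log2 fold change -6.54 ± 0.60 SE, edgeR adjusted p = 1.0e-05; log2 fold change -6.16 ± 0.49 SE, edgeR adjusted p = 4.2e-06; log2 fold change -6.37 ± 0.49 SE, edgeR adjusted p = 3.4e-06). Cd53, a leukocyte tetraspanin, did not pass (39.5 to 94.9 CPM against 32.4 to 113 CPM, log2 fold change 0.21 ± 0.38 SE, edgeR adjusted p = 0.68), against 0.549 ± 0.347 CPM in C9a.MEF, and neither did Arhgdib (log2 fold change 0.25 ± 0.27 SE, edgeR adjusted p = 0.49).

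Receptors and adaptors with immunoreceptor motifs split. Of 22, 18 were tested, 12 fell (14 without the shallow libraries) and 2 rose, with a median of -3.37. Tyrobp (DAP12), the adaptor through which Siglec-H signals, was at 1.93, 2.68, 0.764 and 1.67 CPM in the C9a.SII libraries and 111, 351, 306, 503 and 477 CPM in the pDC libraries (log2 fold change -7.65 ± 0.62 SE, edgeR adjusted p = 4.5e-06). Fgr, a Src-family kinase, was at 1.93, 1.67, 1.05 and 1.33 CPM in the C9a.SII libraries and 164, 309, 370.0, 368 and 452 CPM in the pDC libraries (log2 fold change -7.86 ± 0.43 SE, edgeR adjusted p = 9.2e-07). Cd300a and Cd300lf fell as well (log2 fold change -6.45 ± 0.49 SE, edgeR adjusted p = 3.1e-06; log2 fold change -6.97 ± 0.64 SE, edgeR adjusted p = 1.0e-05). Lilrb4a, an inhibitory receptor of myeloid cells, rose instead, at 163, 289, 234 and 346 CPM in the C9a.SII libraries and 8.4, 18.6, 18.8, 6.29 and 4.07 CPM in the pDC libraries (log2 fold change 4.52 ± 0.49 SE, edgeR adjusted p = 3.2e-05). Fcgr3, the Fc receptor CD16, was at 18.3, 78, 64.7 and 88.6 CPM in the C9a.SII libraries and 1.2, 0, 0.272, 0 and 0 CPM in the pDC libraries. As pDC held 3 counts of Fcgr3 in all, its pooled ratio was 519.8 (95% counting interval 178 to 2521). C9a.MEF had 0.416 ± 0.361 CPM of Lilrb4a and 0.139 ± 0.0777 CPM of Fcgr3. Lyn did not pass (145 to 334 CPM against 157 to 435 CPM, log2 fold change -0.05 ± 0.34 SE, edgeR adjusted p = 0.91).

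Adhesion molecules changed by class. Of 20 adhesion and chemokine receptor genes, 17 were tested, 6 rose (7 without the shallow libraries) and 9 fell. Itgb5, a vitronectin receptor subunit, was at 317, 505, 509 and 459 CPM in the C9a.SII libraries and 14.4, 1.35, 0.817, 3.14 and 0.617 CPM in the pDC libraries (log2 fold change 6.96 ± 0.94 SE, edgeR adjusted p = 2.3e-04). Itga5, the fibronectin receptor alpha chain, also rose (150.2 to 173 CPM against 3.46 to 7.8 CPM, log2 fold change 5.05 ± 0.28 SE, edgeR adjusted p = 9.2e-07). C9a.MEF held 449 ± 19.6 and 260.5 ± 7.61 CPM of them. Ccr2 and Cxcr3, receptors that guide pDC and T cells to inflamed tissue, fell (log2 fold change -5.91 ± 0.49 SE, edgeR adjusted p = 5.2e-06; log2 fold change -6.62 ± 0.94 SE, edgeR adjusted p = 2.1e-04).

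Markers of other blood cells were low in C9a.SII cells apart from a few macrophage genes. Of 13 B cell markers, 6 were tested and 5 fell, none rose (1 rose without the shallow libraries), and their summed level was 9.11 to 20.2 CPM in C9a.SII against 514 to 1026 CPM in pDC. Cd79b, a chain of the B cell receptor complex, was at 0.222 to 1.93 CPM against 9.61 to 22.1 CPM (log2 fold change -5.18 ± 0.57 SE, edgeR adjusted p = 3.4e-05). Ighd, the delta heavy chain gene, was at 0 to 8.67 CPM against 9.95 to 161 CPM (log2 fold change -6.15 ± 2.17 SE, edgeR adjusted p = 0.046), a call lost in 8 of the 14 other settings that gave it a value. Ms4a1 and Cd79a were too low to test in either group, with at most 4.80 and 3.00 CPM in pDC replicate 1 and 0.817 and 1.05 CPM in the other pDC. Fcrla, a B lineage gene that pDC also express, was at 0.963, 0, 0.0955 and 0 CPM in the C9a.SII libraries and 34.8, 111, 110.1, 138 and 155 CPM in the pDC libraries. Ighm was at 0.963 to 4.49 CPM against 279 to 834 CPM (log2 fold change -7.42 ± 0.52 SE, edgeR adjusted p = 2.0e-06). Of 12 T and NK markers, 5 were tested, 4 fell and 1, the fibroblast surface gene Thy1, rose (22.1 to 44.1 CPM against 3.78 to 11 CPM, log2 fold change 2.28 ± 0.32 SE, edgeR adjusted p = 2.1e-04), with 670.0 ± 14.9 CPM in C9a.MEF. Cd8b1 was at 0, 0.111, 0 and 0 CPM in the C9a.SII libraries and 38.4, 61.2, 60.2, 100.04 and 128 CPM in the pDC libraries, and Cd3d was at 0 in all C9a.SII libraries. Cd3e, too low to test, held 63 counts in C9a.SII (at most 2.96 CPM) and 24 in pDC. Its highest pDC level was 4.80 CPM, or 1.11 CPM outside replicate 1. Of 14 granulocyte and erythroid markers, 13 were too low to test and 1, Mpo, fell (log2 fold change -4.70 ± 1.34 SE), and S100a9 and Retnlg had no count in either group. Mpo stood at 28.2 CPM in pDC replicate 1, at 0.864 to 5.45 CPM in the other pDC and at 0 to 1.93 CPM in C9a.SII. Its groups overlapped, and its call held without the shallow libraries but was lost in 2 of 15 other settings.

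Of 18 macrophage and monocyte markers, 9 were tested, 5 rose (7 without the shallow libraries) and 1 fell. Lyz2, lysozyme of myeloid cells, was at 20.2, 152, 26.8 and 58.1 CPM in the C9a.SII libraries and 4.2, 2.7, 2.45, 0 and 0.864 CPM in the pDC libraries (log2 fold change 5.15 ± 0.88 SE, edgeR adjusted p = 0.0011). Its 4 C9a.SII values spread widely, yet all lay above pDC and above the 1.13 ± 0.106 CPM of C9a.MEF. Adgre1 (F4/80) rose (11.9 to 27.8 CPM against 0 to 1.8 CPM, log2 fold change 4.83 ± 0.62 SE, edgeR adjusted p = 1.0e-04), and C9a.MEF had 0.0256 ± 0.0512 CPM. Spp1 (osteopontin), which fibroblasts also make, was at 182, 481, 288 and 253 CPM in the C9a.SII libraries and 0.6, 0, 0.545, 0 and 0.123 CPM in the pDC libraries (log2 fold change 10.41 ± 0.67 SE, edgeR adjusted p = 1.3e-06), and C9a.MEF held 1649.9 ± 63.1 CPM. Gpnmb rose (92.5 to 228 CPM against 0.741 to 10.8 CPM, log2 fold change 5.43 ± 0.61 SE, edgeR adjusted p = 5.4e-05) beside a C9a.MEF level of 156 ± 6.48 CPM. Cd68 fell (7.7 to 25.1 CPM against 69 to 170.0 CPM, log2 fold change -2.63 ± 0.36 SE, edgeR adjusted p = 1.7e-04). The other 9 were too low to test. Of these, Marco, a scavenger receptor of macrophages, reached 10.25 CPM in C9a.SII (against 1.201 CPM in pDC). C1qb and C1qc, subunits of the complement protein C1q, reached 4.35 and 3.46 CPM (64 and 62 counts, against 17 and 16 in pDC). Mrc1, Ms4a7 and C1qa reached 2.79, 2.34 and 2.23 CPM, Lyz1 and Cd163 0.963 CPM each, and Vsig4 had no count in C9a.SII. The part that these levels play in the myeloid factor changes above was not tested.

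Fibroblast genes were higher as a group. Of 30 matrix genes, 29 were tested, 25 rose (28 without the shallow libraries) and 1, Eln (elastin, log2 fold change -2.88 ± 0.93 SE), fell, with a median log2 fold change of 5.12. Their summed level was 28841 to 56399 CPM in C9a.SII, 65103 CPM in C9a.MEF, 1706 CPM in pDC replicate 1 and 241 to 295 CPM in the other pDC. Fn1 (fibronectin) was at 14243, 33910.4, 33085 and 31695 CPM in the C9a.SII libraries and 48.6, 12.1, 8.45, 8.64 and 1.98 CPM in the pDC libraries (log2 fold change 10.81 ± 1.03 SE, edgeR adjusted p = 1.7e-05). Thbs1 (thrombospondin) was at 6447, 11665, 12758 and 11572 CPM in the C9a.SII libraries and 9, 2.97, 4.36, 2.62 and 1.61 CPM in the pDC libraries (log2 fold change 11.37 ± 0.66 SE, edgeR adjusted p = 9.2e-07). Fn1 stood above the 9762 ± 222 CPM of C9a.MEF in all 4 libraries, while Thbs1 was below or close to its 12638 ± 591 CPM. Thbs2 and Bgn rose (log2 fold change 7.92 ± 0.92 SE, edgeR adjusted p = 6.6e-05; log2 fold change 7.72 ± 0.57 SE, edgeR adjusted p = 2.6e-06). Col1a1, a type I collagen chain, did not pass the test (579 to 1517 CPM against 2.72 to 1154 CPM, log2 fold change 1.79 ± 1.46 SE, edgeR adjusted p = 0.35). In pDC replicate 1 it stood at 1154 CPM and in the other pDC at no more than 55.6 CPM, and it was called higher without that library. Col6a3 was likewise called higher without it.

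Of 24 mesenchymal factors and receptors, 23 were tested, 17 rose (19 without the shallow libraries) and 1, Eng (endoglin, log2 fold change -1.03 ± 0.31 SE), fell, with a median of 2.90. Twist2, a basic helix-loop-helix factor of mesenchyme, was at 30.8, 84.3, 84.7 and 82.4 CPM in the C9a.SII libraries and 0, 1.35, 0.545, 1.31 and 0.247 CPM in the pDC libraries (log2 fold change 6.61 ± 0.56 SE, edgeR adjusted p = 6.0e-06). Tbx15 and Twist1 rose too (log2 fold change 6.65 ± 0.44 SE, edgeR adjusted p = 1.5e-06; log2 fold change 6.05 ± 0.59 SE, edgeR adjusted p = 1.5e-05), and so did the cadherin Cdh2 (log2 fold change 5.57 ± 0.61 SE, edgeR adjusted p = 4.2e-05). For Twist2 the C9a.SII level lay below the 266 ± 5.03 CPM of C9a.MEF, and for Twist1 it was near its 43.9 ± 3.39 CPM. Pdgfra, the growth factor receptor that marks fibroblasts, did not pass the test (12.5 to 30.3 CPM against 2.72 to 40.2 CPM, log2 fold change 0.26 ± 0.60 SE, edgeR adjusted p = 0.75) and stood far below the 547 ± 5.86 CPM of C9a.MEF. Without both shallow libraries, of which pDC replicate 1 had its highest pDC value (40.2 CPM), it was called higher (log2 fold change 1.18, edgeR adjusted p = 0.0442). Of 15 contractile genes, 14 rose, and Tagln2 did not pass the fold limit (log2 fold change -0.92 ± 0.33 SE). Acta2 (smooth muscle actin) was at 404, 401, 560.0 and 481 CPM in the C9a.SII libraries and 3.6, 0.539, 1.91, 0.524 and 0.123 CPM in the pDC libraries (log2 fold change 8.69 ± 0.76 SE, edgeR adjusted p = 8.0e-06), with 1561 ± 47.5 CPM in C9a.MEF. Tagln, Cald1 and Myl9 rose, with log2 fold changes of 8.64, 8.64 and 6.50. Of 24 HOX genes, which record body position in fibroblasts, 21 were tested and 10 rose (16 without the shallow libraries), among them Hoxc10 (log2 fold change 5.11 ± 0.51 SE, edgeR adjusted p = 1.7e-05) and Hoxc6 (log2 fold change 4.33 ± 0.56 SE, edgeR adjusted p = 1.0e-04). Hoxa7 did not pass (12.2 to 18.3 CPM against 10.8 to 30.6 CPM, log2 fold change -0.73 ± 0.31 SE, edgeR adjusted p = 0.077).

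**Figure D5:**
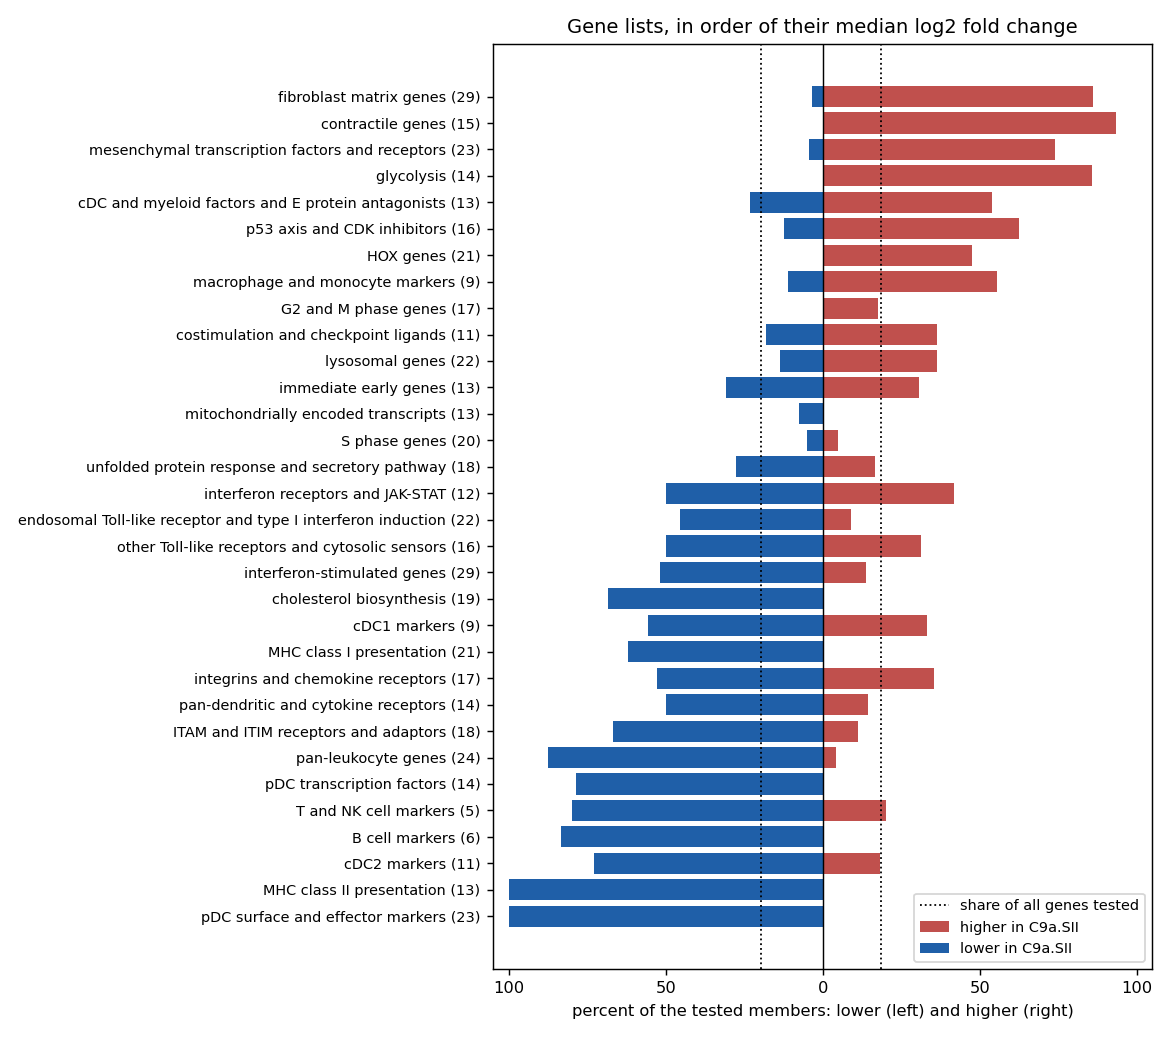
Percent of tested members called higher (right) or lower (left) in C9a.SII for the 32 gene lists with at least 5 tested members, in order of their median log2 fold change; dotted lines mark the shares over all genes tested, 18.4% higher and 19.7% lower, and numbers in brackets the members tested. Class II presentation and pDC surface genes reach 100% lower, while contractile genes, glycolysis and fibroblast matrix genes stand far past the line on the higher side.

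Few cell cycle genes passed the test. Of 20 G2 and M phase genes, 17 were tested, 3 rose (Top2a, Kif20a and Ube2c) and none fell, with a median of 0.95. Without the shallow libraries 10 rose. In the replicate 1 libraries the list summed to 358 CPM in C9a.SII and 268 CPM in pDC. The other libraries held 127 to 131.2 CPM and 40.9 to 81.2 CPM. Top2a, the mitotic topoisomerase, was at 20.2, 16.8, 21.1 and 18.9 CPM in the C9a.SII libraries and 10.2, 5.66, 4.36, 7.33 and 4.57 CPM in the pDC libraries (log2 fold change 1.61 ± 0.29 SE, edgeR adjusted p = 0.0012), against 95.9 ± 8.51 CPM in C9a.MEF. Mki67 did not pass (25.2 to 206 CPM against 13 to 95.5 CPM, log2 fold change 1.09 ± 0.86 SE, edgeR adjusted p = 0.33). Of 20 S phase genes, all tested, 1 rose and 1 fell (2 and 3 without the shallow libraries), with Rrm2 higher (log2 fold change 2.62 ± 0.38 SE, edgeR adjusted p = 2.4e-04) and Chaf1b lower (log2 fold change -1.56 ± 0.53 SE). Uhrf1, not called, reached 3386 CPM in pDC replicate 1 and 3.83 to 14.0 CPM in the other pDC.

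Genes of the p53 axis and CDK inhibitors were mostly higher, but the CDK inhibitors themselves were split. Of 16 genes of the p53 axis and CDK inhibitors, all tested, 10 rose and 2 fell (11 and 3 without the shallow libraries), with a median of 1.76. Cdkn1a (p21) was at 142, 215, 234 and 222 CPM in the C9a.SII libraries and 6.6, 2.43, 1.63, 2.62 and 0.617 CPM in the pDC libraries (log2 fold change 6.37 ± 0.54 SE, edgeR adjusted p = 6.1e-06), and C9a.MEF had 349 ± 14.4 CPM. Cdkn1c (p57) rose (44.3 to 95.5 CPM against 0.37 to 6.6 CPM, log2 fold change 4.79 ± 0.58 SE, edgeR adjusted p = 8.3e-05) and stood above the 28.4 ± 2.82 CPM of C9a.MEF. Cdkn1b (p27) was not called (28.9 to 39.9 CPM against 26.4 to 88.3 CPM, log2 fold change -0.86 ± 0.33 SE, edgeR adjusted p = 0.051). With no low-count filter, or without pDC replicate 1 or 2, Cdkn1b was called lower. Phlda3 and Fas, both p53 targets, rose (log2 fold change 5.70 ± 0.53 SE, edgeR adjusted p = 1.0e-05; log2 fold change 4.53 ± 0.60 SE, edgeR adjusted p = 1.2e-04), whereas Btg2 and Cdkn2c fell (log2 fold change -2.61 ± 0.28 SE, edgeR adjusted p = 3.2e-05; log2 fold change -1.98 ± 0.36 SE, edgeR adjusted p = 0.0011).

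Metabolic and organelle genes moved by pathway. Of 14 glycolysis genes, all tested, 12 rose and none fell, with a median of 2.66 and no overlap for any of the 14. Tpi1, triosephosphate isomerase, was at 78, 201, 188 and 176 CPM in the C9a.SII libraries and 6, 7.01, 8.72, 7.33 and 10.7 CPM in the pDC libraries (log2 fold change 4.32 ± 0.32 SE, edgeR adjusted p = 2.6e-06). Pgam1, Pkm and Eno1 rose (log2 fold change 3.52 ± 0.29 SE, edgeR adjusted p = 4.8e-06; log2 fold change 3.21 ± 0.38 SE, edgeR adjusted p = 6.4e-05; log2 fold change 3.16 ± 0.36 SE, edgeR adjusted p = 4.8e-05). Pfkp, the platelet form of phosphofructokinase, was lower by less than 2-fold (24.1 to 38.5 CPM against 51.1 to 72.6 CPM, log2 fold change -0.87 ± 0.20 SE, edgeR adjusted p = 0.0049), and Hk1 higher by less than 2-fold (log2 fold change 0.77 ± 0.21 SE, edgeR adjusted p = 0.012). Of 19 cholesterol synthesis genes, all tested, 13 fell and none rose, with a median of -1.40. Idi1, an isomerase of the pathway, was at 6.74, 9.47, 8.79 and 10.3 CPM in the C9a.SII libraries and 30.6, 51, 59.7, 82.8 and 94.1 CPM in the pDC libraries (log2 fold change -2.82 ± 0.34 SE, edgeR adjusted p = 6.7e-05). Dhcr7, Insig1 and Mvd fell (log2 fold change -2.63 ± 0.32 SE, edgeR adjusted p = 7.9e-05; log2 fold change -2.25 ± 0.45 SE, edgeR adjusted p = 0.0021; log2 fold change -2.09 ± 0.38 SE, edgeR adjusted p = 0.0012). Both counts were the same without the shallow libraries.

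Of 22 lysosomal genes, all tested, 8 rose and 3 fell, with a median of 0.62. Cd63, the tetraspanin of lysosomes and exosomes, was at 162, 325, 312 and 322 CPM in the C9a.SII libraries and 3, 2.16, 2.18, 2.88 and 0.494 CPM in the pDC libraries (log2 fold change 7.11 ± 0.50 SE, edgeR adjusted p = 1.9e-06), and C9a.MEF had 436 ± 7.68 CPM. Ctsd, an aspartic protease, and Lamp1 rose (log2 fold change 3.98 ± 0.36 SE, edgeR adjusted p = 9.1e-06; log2 fold change 2.85 ± 0.38 SE, edgeR adjusted p = 1.3e-04). Tfeb, the regulator of lysosome genes, and Psap fell (log2 fold change -1.99 ± 0.28 SE, edgeR adjusted p = 2.1e-04; log2 fold change -1.87 ± 0.37 SE, edgeR adjusted p = 0.0019), as did Ctsh (log2 fold change -1.47 ± 0.36 SE). Of the 13 transcripts encoded in mitochondria, 1 (mt-Nd3, log2 fold change -1.05 ± 0.38 SE) was called lower and none higher (1 higher without the shallow libraries), with a median of 0.02. The mt-Nd3 change lay at the 2-fold limit and was not called in 9 of 15 other settings. The groups overlapped for all 13 transcripts. Of these 13, 12 were lowest in pDC replicate 1 and 12 highest in pDC replicate 5.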

How the data were processed

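The deposited table held raw counts per gene for the libraries. Per the submitters' processing notes, STAR 2.7.9a, Salmon 1.10.1 and mm10 were used; which of them gave the counts, from which annotation and with what strand setting, is not given in the sources used here. The table's other 148 library columns were not used. Per the labels' protocols, total RNA of sorted cells entered a stranded low-input kit with PCR amplification, so reads are not independent molecules. The pseudocount for correlations was 1. Of 57010 identifiers, 52029 matched a gene name (GENCODE M21), and the 4981 unnamed took 12.5 to 26% of counts in the 9 libraries compared.

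Both groups were fitted with edgeR 4.0.16 in R 4.3.3 (quasi-likelihood test, robust, TMM, filterByExpr by group, Benjamini-Hochberg over all genes tested), with no covariate. DESeq2 1.42.0, other scalings, filters and level minimums, left-out libraries, a replicate block and 1 fit over 5 groups were alternatives. On simulated counts of 14979 genes, 24.5% of genes changed by 1.5 and 61.9% of genes changed by 2 on the log2 scale were called, and 0.0271% of unchanged genes. The simulation changed few genes, smoothed the spread over genes of like level and held no deviating library like the replicate 1 libraries. These shares are therefore not the error rates of the real comparison.

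Members and lists were chosen with earlier results of these data known. Named were all transduced, sort, pDC, myeloid and Toll-like receptor list members, and from each other list the largest called changes of 10 CPM or more without overlap and the 2 highest uncalled members, plus the 12 largest changes each way. No 2 replicates agreed within counting noise (lowest chi-square per degree of freedom 4.43). Of the 234 named genes, 87 overlap a gene on the other strand and 43 one on the same strand, which the counting may not separate. Some named genes are not reported here.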

Additional observations from a re-analysis of the deposited data

Results flagged for a closer look

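In 122 groups of 4 or 5 libraries (the 57 genes shown library by library, and library-wide shares), 24 values lay far from the rest of their group by a test that chance passes in about 1 of 20 groups. Of these, 9 were in C9a.SII replicate 1 and 8 in pDC replicate 1, both shallow.

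In C9a.SII replicate 1, Irf8 (271 CPM) stood above its group, while Runx2 (13.5 CPM), Irf7 (48.2 CPM), Ifngr2 (143 CPM), Fn1 (14243 CPM), Twist2 (30.8 CPM) and Cd63 (162 CPM) stood below it. Fcrla (0.963 CPM) and the share of olfactory and vomeronasal receptor counts (1.91%) were high there. In pDC replicate 1, Siglech (911 CPM), Oasl2 (26.4 CPM) and no other gene of the 57 lay far below the group. Id1 (1.801 CPM), Oas2 (6.604 CPM), Fcgr3 (1.201 CPM), Itgb5 (14.4 CPM), Fn1 (48.6 CPM) and the olfactory and vomeronasal share (2.57%) lay far above it.

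Elsewhere, Irf4 was high in pDC replicate 5 (46.1 CPM), Id2 low in C9a.SII replicate 3 (108 CPM), and the share of unnamed identifiers high in pDC replicate 4 (26%). Counts of 1 to 3 set 4 values, Siglech in C9a.SII replicate 3 (2 counts, 0.191 CPM), Ccr9 in replicate 4 (3 counts, 0.333 CPM), and Ly6d and Cd8b1 in replicate 2 (1 count each, both 0.111 CPM).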

How the results depend on the processing

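The counts of 2610 higher and 1877 lower genes of 10 CPM or more stayed within 1.5 times under other scalings, filters, DESeq2 (2553 and 2043), 1 fit over 5 groups (3459 and 1535), the loss of both shallow libraries (3239 and 1839) and of each library in turn (2223 to 3018 and 1705 to 2031). The level minimum mattered: at 1 CPM 3062 were lower, and at 50 CPM 1353 were higher and 819 lower. The median of these genes moved from 0.15 to 0.325 without the shallow libraries and 0.475 in the fit over 5 groups, to 0.0388 and 0.0405 without pDC replicate 3 or 2, and turned sign with no low-count filter (-0.0612). Of the 4487 calls, 3937 to 4383 were shared and none reversed. Of 3506 values of named genes, 3428 kept their direction and call, 31 lost the call, 45 gained it and 2 reversed: Fcgr1, from 1.72 (uncalled) to -7.83 without both shallow libraries and -9.37 without C9a.SII replicate 1, which held 2295 CPM of it (3.24 without pDC replicate 1, the highest of these); with the replicate block it was -6.31 (uncalled). Among the named genes, the call was lost at least once for Asns, Hmgb1, Ighd, Kif20a, Stat2 and Traf3. Some single calls given for lists outside the named genes were lost too. Over the 15 other settings, Plek was not called in 7, mt-Nd3 in 9, Eln in 3 and Mpo in 2. Eng was also not called in some of them.

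Apart from number 1, libraries of the same number showed no clear likeness in their deviations from the group means. Those means include the deviating replicate 1 libraries, so this check cannot exclude a pairing among the other numbers. Same-numbered deviations correlated at 0.481, -0.0708, 0.092 and 0.0262. The shallow replicate 1 was the only 1 of 4 C9a.SII libraries that matched its own number best. With the number as a replicate block, 2981 genes were higher and 2107 lower.

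Depth limits genes below about 3 CPM in C9a.SII replicate 1, and a DESeq2 adjusted p was not given for 4 named genes.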

Other observations

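The largest changes over all genes included genes outside the lists above. Slfn4, a Schlafen family gene of myeloid cells, was at 925 to 2087 CPM against 0.272 to 0.809 CPM (log2 fold change 11.64 ± 0.49 SE, edgeR adjusted p = 5.0e-07), and C9a.MEF held 845 ± 178 CPM (SD, n = 4). Ccl2, the monocyte chemokine, stood at 95.3 to 284 CPM against 0.123 to 0.6 CPM (log2 fold change 9.26 ± 0.52 SE, edgeR adjusted p = 9.2e-07), with 768 ± 7.01 CPM in C9a.MEF. Grem1, a secreted BMP antagonist, was at 117 to 653 CPM against 0.37 to 2.4 CPM (log2 fold change 8.95 ± 0.71 SE, edgeR adjusted p = 3.8e-06), and C9a.MEF had 513 ± 36.1 CPM. Tnfsf18, the ligand of GITR, was at 13.5, 106, 114 and 109 CPM in the C9a.SII libraries and had no count in any pDC library, at least 741.6-fold higher with 3 counts over the group as the floor. C9a.MEF held 0.436 ± 0.107 CPM of Tnfsf18, so its C9a.SII level lay above both groups.

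Immunoglobulin transcripts and Klk1 lay at the other end. Igkc, the kappa constant region, had no count in C9a.SII and stood at 15 to 39.9 CPM in pDC. Iglc3, a lambda constant region, was at 0 to 0.111 CPM against 32.4 to 135 CPM, and Klk1, a kallikrein protease, at 0 to 0.0955 CPM against 107 to 335 CPM. Of 18 tested genes of the unfolded protein response and secretory pathway, 3 rose and 5 fell (4 and 6 without the shallow libraries), with Herpud1 lower (log2 fold change -2.73 ± 0.36 SE, edgeR adjusted p = 1.3e-04), Edem2 lower (log2 fold change -2.59 ± 0.32 SE, edgeR adjusted p = 8.4e-05) and Ddit3 higher (log2 fold change 2.21 ± 0.34 SE, edgeR adjusted p = 3.4e-04). Immediate early genes also divided, 4 higher and 4 lower of 13 tested, or 6 and 3 without the shallow libraries. Fosb and Fos, induced by handling and stimulation in many cells, fell (log2 fold change -4.96 ± 0.43 SE, edgeR adjusted p = 7.2e-06; log2 fold change -1.62 ± 0.29 SE, edgeR adjusted p = 0.001), while Ier3 and Junb rose (log2 fold change 5.85 ± 0.62 SE, edgeR adjusted p = 2.8e-05; log2 fold change 2.40 ± 0.23 SE, edgeR adjusted p = 1.6e-05).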
